A study of Solanum lycopersicum with 12 samples.

Results

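CCD1A (Solyc01g087250), CCD1B (Solyc01g087260) and Solyc01g087270 carry consecutive identifiers on tomato chromosome 1, and their transcripts were followed in ripe fruit of 2 inbred lines and both of their hybrids. The 3 genes were taken by identifier from the 17887 genes of the deposited count table, and all 3 were present. RNA came from the mesocarp, the fleshy layer of the fruit wall, of red ripe greenhouse fruits, with 3 fruits per genotype and 12 libraries. QxG and GxQ are the hybrids, crossed in either order. Their parents are Querubín FCA (Q) and Gema FCA (G), recombinant inbred lines that descend from a cross with the wild species Solanum pimpinellifolium, so all 4 genotypes may carry wild alleles. The labels call the 3 fruits of a genotype biological replicates but do not say whether they came from separate plants, and p-values measure the spread between these fruits.

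Carotenoid cleavage dioxygenases cut carotenoids into smaller apocarotenoids. In plants the CCD1 enzymes act outside the plastid and accept many substrates. In tomato fruit CCD1A and CCD1B release volatiles such as geranylacetone and beta-ionone, which belong to the aroma of ripe fruit. In the RefSeq gene table (assembly SLM_r2.1) CCD1A and CCD1B lie on chromosome 1 with 0 protein-coding genes between them. Solyc01g087270 has no name in the sources at hand, and no role is given to it.

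The cluster was chosen by measured values of these libraries, namely the levels of its genes in Q and G and in the hybrids. Its differences between Q and G, between hybrids and parents, the mid-parent included, and between QxG and GxQ are therefore values without a test. Levels are read counts scaled to library size by the TMM method, in CPM, and libraries held 15207931 to 25320267 counts. QxG library 1 showed 1436 genes without a count, while the other 11 libraries had 31 to 338 such genes. Genes with 1 to 4 counts numbered 77 there, while QxG library 2 held 730 and QxG library 3 held 724, so a 0 in QxG library 1 may stand for a low count, and whether low counts were removed before deposit was not tested. Markers of ripe flesh were abundant in every library, at 995 to 7549 CPM of the polygalacturonase PG2A, 576 to 5212 CPM of the pectate lyase PL and 175 to 2060 CPM of the expansin EXP1. Q library 3 stood apart from Q libraries 1 and 2, with 7549 CPM of PG2A against 1565 and 1918 CPM. The epidermis gene CER6 ranged from 0 to 12.8 CPM, the chlorophyll-binding protein gene CAB from 2.46 to 19.3 CPM and an RBCS gene from 43.6 to 470 CPM. The epidermis gene CD1 and a further RBCS gene were not analysed here.

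CCD1A stood at an intermediate level in both hybrids. It measured 35.8, 29.4 and 31.1 CPM in the QxG libraries, 30.1, 32.6 and 32.0 CPM in GxQ, 8.14, 7.49 and 6.70 CPM in Q, and 59.8, 90.4 and 75.1 CPM in G. All 6 hybrid libraries lay above every Q library and below every G library. Such a place between the parents was found for 0.419% of all genes, and for 1.09% of the genes whose Q and G libraries did not overlap, which were 38.4% of all. Over all genes, QxG libraries did not overlap Q for 30% and G for 32.9%, and GxQ libraries did not overlap Q for 38.9% and G for 38.5%. Mean CCD1A was 32.1 ± 3.33 CPM in QxG, 31.6 ± 1.30 CPM in GxQ, 7.44 ± 0.719 CPM in Q, and 75.1 ± 15.3 CPM in G fruits (SD, n = 3 per genotype).

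**Figure D1:**
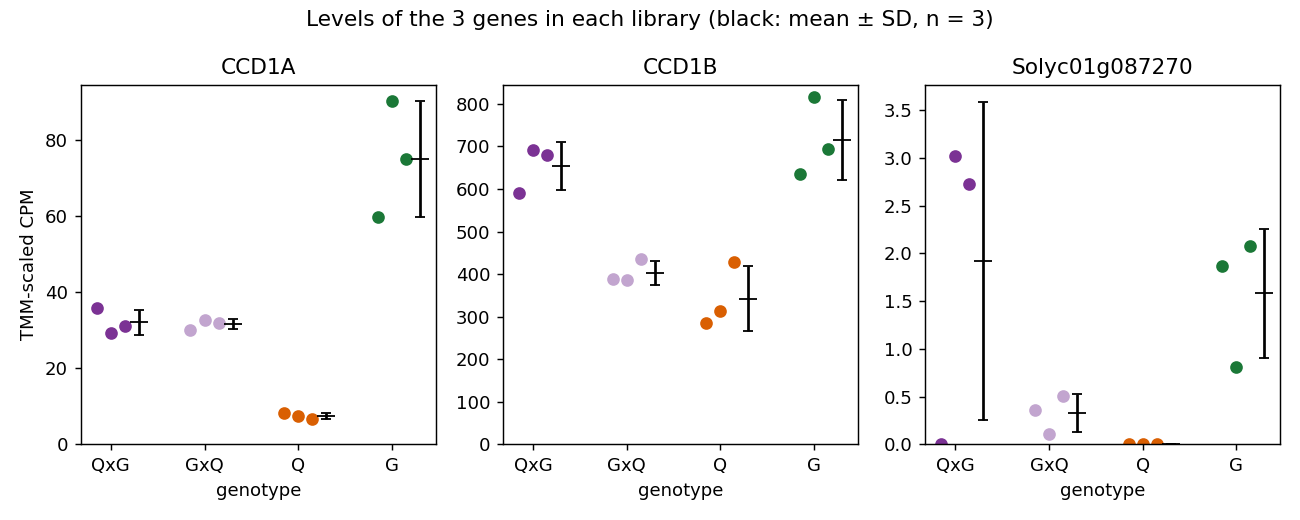
TMM-scaled CPM of CCD1A, CCD1B and Solyc01g087270 in each library of QxG, GxQ, Q and G, with the mean ± SD of each genotype in black. CCD1A lies between 29.4 and 35.8 CPM in the hybrids, CCD1B is high in QxG and G and lower in GxQ and Q, and Solyc01g087270 is at 0 in every Q library and in QxG library 1.

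In fitted values CCD1A of QxG was 4.30-fold above Q (log2 fold change 2.11, SE 0.167) and had a log2 fold change of -1.22 against G (SE 0.160). CCD1A of GxQ was 4.23-fold above Q (log2 fold change 2.08, SE 0.167) and had -1.25 against G (SE 0.160). Q against G gave -3.33 (SE 0.174), so Q held 9.92% of the mean G level, while QxG held 42.8% and GxQ 42.0% of it. QxG against GxQ gave a log2 fold change of 0.025 (SE 0.159, 95% interval -0.32 to 0.37). The QxG and GxQ libraries overlapped, and the interval is the range of differences that these fruits allow.

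The side of the mid-parent on which CCD1A lay depended on the scale. On the log scale, where the mid-parent averages the log levels of Q and G (a geometric mean of 23.6 CPM), both hybrids pooled had a log2 fold change of 0.43 (SE 0.113), QxG one of 0.44 (SE 0.136) and GxQ one of 0.42 (SE 0.136). On the linear scale the mid-parent was 41.3 CPM, and QxG stood at 77.8% and GxQ at 76.5% of it. By limma-voom the pooled hybrids had 0.44 against the log-scale mid-parent (SE 0.130) and -0.35 against the linear one (SE 0.128).

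CCD1B showed another order, in which QxG overlapped G and GxQ overlapped Q. The libraries held 590, 693 and 681 CPM in QxG, 388, 385 and 435 CPM in GxQ, 285, 314 and 429 CPM in Q, and 635, 817 and 694 CPM in G. Every QxG library was above every GxQ and every Q library, and every G library was above every GxQ and every Q library. Over all genes the hybrids' libraries did not overlap for 26.5%, with QxG above GxQ for 10.4%. Mean CCD1B was 654 ± 56.4 CPM in QxG, 403 ± 28.0 CPM in GxQ, 342 ± 76.4 CPM in Q, and 715 ± 93.0 CPM in G fruits (SD, n = 3 per genotype).

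CCD1B of QxG had a log2 fold change of 0.93 against Q (SE 0.187) and of -0.13 against G (SE 0.186). CCD1B of GxQ had 0.23 against Q (SE 0.186) and -0.83 against G (SE 0.187). Q against G gave -1.06 (SE 0.188), and QxG against GxQ gave 0.70 (SE 0.187), a 1.62-fold higher level in QxG. Q library 3 held the highest CCD1B level of its genotype and the lowest CCD1A level.

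Of the flesh, epidermis and chloroplast markers, PL, EXP1 and CAB were called higher in QxG than in GxQ, the direction of CCD1B (edgeR adjusted p = 0.00364, 0.0346 and 0.0245). In QxG the mean level was 2058 ± 283 CPM for PL, against 653 ± 66.9 CPM in GxQ, and 722 ± 109 CPM for EXP1, against 213 ± 35.7 CPM in GxQ. For CAB it was 10.4 ± 3.37 CPM in QxG, against 3.46 ± 1.61 CPM in GxQ (all SD, n = 3 fruits). PG2A, at 1973 CPM in QxG against 1177 CPM in GxQ, and the RBCS gene, at 159 against 143 CPM, did not pass (edgeR adjusted p = 0.394 and 0.894). Nor did PSY1, a carotenoid synthesis gene also used as a flesh marker, at 6704 against 5562 CPM (adjusted p = 0.644). CER6 lay the other way, at 0.299 against 0.335 CPM (adjusted p = 0.913). Over all genes 2.66% were called higher in QxG and 7.49% lower. The part of these markers in the CCD1B values was not tested, and in whole tissue fewer cells of a type and less RNA per cell cannot be told apart.

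**Figure D2:**
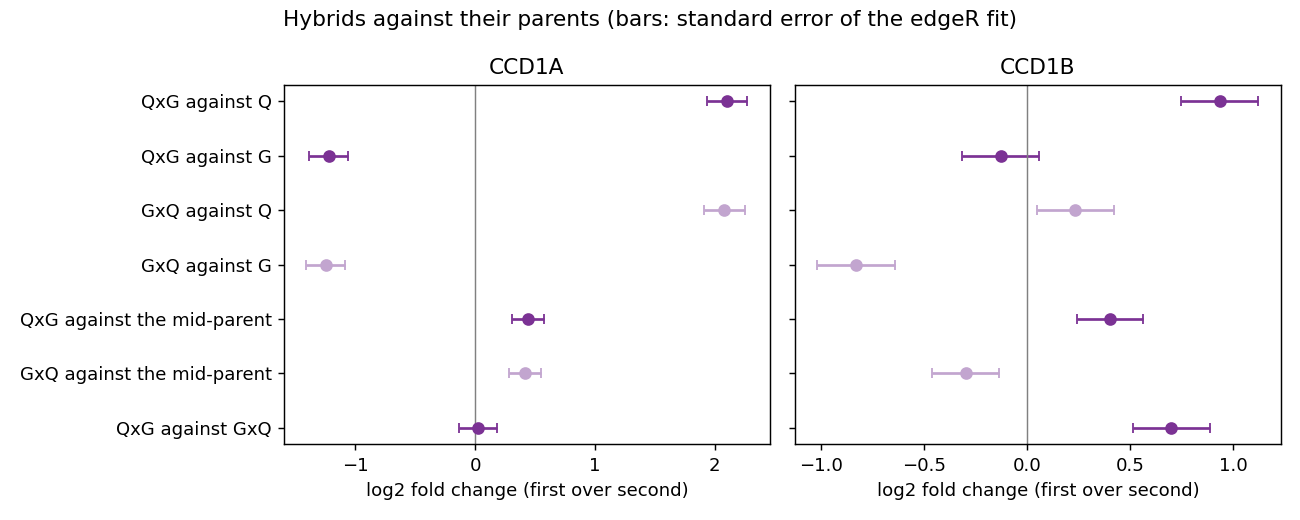
Log2 fold changes ± SE of the edgeR fit for CCD1A and CCD1B: each hybrid against each parent and against the log-scale mid-parent, and QxG against GxQ. For CCD1A the hybrids lie together (2.11 and 2.08 against Q, -1.22 and -1.25 against G), whereas for CCD1B QxG has -0.13 against G and GxQ has 0.23 against Q.

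Pooled over both hybrids CCD1B had a log2 fold change of 0.053 against the log-scale mid-parent (SE 0.131). QxG had 0.40 (SE 0.159) and GxQ had -0.30 (SE 0.163), so the hybrids lay on opposite sides of it. Without Q library 3 the QxG value was 0.53. On the linear scale the mid-parent was 529 CPM, QxG stood at 124% of it and GxQ at 76.2%, and the 6 hybrid libraries averaged 529 CPM.

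The share of CCD1A in the counts of CCD1A and CCD1B separated the 4 genotypes. It averaged 4.72 ± 0.884% in QxG, 7.29 ± 0.487% in GxQ, 2.22 ± 0.629% in Q, and 9.44 ± 0.728% in G (SD, n = 3 per genotype). Libraries spanned 4.07% to 5.73% in QxG, 6.85% to 7.81% in GxQ, 1.54% to 2.78% in Q and 8.61% to 9.96% in G, with no overlap between genotypes. The lowest share, in Q library 3, had an exact Clopper-Pearson 95% interval of 1.28% to 1.83%, and the highest, in G library 2, one of 9.46% to 10.5%, for counting error only. No transcript lengths were used, so the share describes a split of counts and not the relative abundance of the transcripts. Levels of both genes were known when they were chosen, so the separation is a description. How often other pairs of genes separate the genotypes was not computed.

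**Figure D3:**
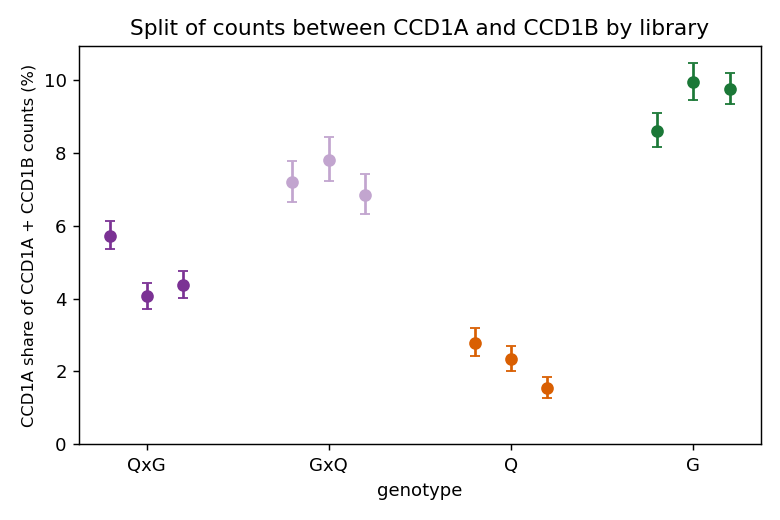
CCD1A counts as a percentage of CCD1A plus CCD1B counts in each library, with exact binomial 95% intervals that cover counting error only. G lies highest (8.61% to 9.96%), then GxQ (6.85% to 7.81%), QxG (4.07% to 5.73%) and Q (1.54% to 2.78%).

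Similar neighbouring genes can share reads, so their separate levels are uncertain, and the rule for reads that match several places is one point not given in the sources used here. CCD1A had 1.56 counts per 100 of CCD1B in Q library 3, the lowest ratio, and 11.1 in G library 2, the highest. A constant leak of CCD1B reads into CCD1A could not exceed that lowest ratio. At 1.56 per 100 it would equal 31.9% of the CCD1A level in QxG, 19.9% in GxQ, 71.9% in Q and 14.9% in G. Loss of reads from alleles that differ from the reference was not tested. Across the 12 libraries, which share their genotypes, log2(CPM + 0.5) of CCD1A and CCD1B had a Pearson r of 0.784 and a Spearman rho of 0.650, and deviations from the genotype means had r = -0.023.

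The sum of the 3 genes does not depend on how counted reads were split among them. Shared reads left out of counting would be missing from it too, which was not tested. The sum was 688 ± 54.8 CPM in QxG, 435 ± 28.5 CPM in GxQ, 350 ± 75.7 CPM in Q, and 792 ± 107 CPM in G fruits (SD, n = 3 per genotype). CCD1B supplied most of it, and the order of the means was that of CCD1B, with overlap between QxG and G and between GxQ and Q. QxG against GxQ gave a log2 fold change of 0.66 (SE 0.186). Against the log-scale mid-parent the sum gave 0.056 for both hybrids pooled (SE 0.131), 0.39 for QxG (SE 0.158) and -0.28 for GxQ (SE 0.162).

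Solyc01g087270 had few counts, and none in Q. Its counts were 0, 50 and 46 in QxG, 7, 2 and 9 in GxQ, 0, 0 and 0 in Q, and 38, 12 and 53 in G. In CPM these were 0, 3.02 and 2.73 in QxG, 0.358, 0.109 and 0.509 in GxQ, and 1.86, 0.808 and 2.07 in G. All GxQ libraries lay below all G libraries and above Q, at 20.6% of the mean G level. A count of 0 in Q allows up to 3 counts over its 3 libraries, or 0.0441 CPM. Against that limit the observed mean was 43.5-fold higher in QxG, 7.39-fold higher in GxQ, and 35.9-fold higher in G. These folds cover the counting error of Q only, and leave out the error and spread of the QxG, GxQ and G libraries.

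The size of the hybrid difference of Solyc01g087270 depended on QxG library 1. At 2.88 CPM, the mean of QxG libraries 2 and 3, that library would have held 66.7 counts, and it held 0. Of 1020 genes that averaged 2.30 to 3.60 CPM in the 9 libraries of the other genotypes, 91 (8.92%) were at 0 in QxG library 1, while 10 were at 0 in QxG library 2 and 9 in QxG library 3. QxG averaged 5.89 times the GxQ level with library 1 and 8.83 times without it. By edgeR the log2 fold change of QxG against GxQ was 2.53 with all libraries (SE 1.24) and 3.16 without QxG library 1.

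The place of Solyc01g087270 against the mid-parent depended on how the zeros in Q and in QxG library 1 are treated. On the linear scale the mid-parent was 0.791 CPM, and QxG stood at 243% of it, or at 364% without library 1, and GxQ at 41.2%. Fitted on the log scale, QxG against the mid-parent was 4.26 by edgeR (SE 1.27) and 1.19 by limma-voom (SE 1.58). QxG against GxQ was 0.50 by limma-voom (SE 1.75), so its size is not fixed by these counts.

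Of the 10 nearest genes of the table on each side of the cluster, edgeR called 0 of 20 between QxG and GxQ. Over all genes 10.1% were called there, 2.66% higher and 7.49% lower. Among the 20, 7 had an unadjusted p under 0.05. The share of all genes below that limit is not given here, and it is at least the 10.1% called. DESeq2 called 0 of the 20, and a replicate block in the hybrids gave 1. The genes next to the cluster in the table were Solyc01g087240, at 14.4 ± 2.42 CPM in QxG against 22.0 ± 5.74 CPM in GxQ, and Solyc01g087290, at 19.7 ± 6.76 CPM in QxG against 23.9 ± 3.89 CPM in GxQ (SD, n = 3 fruits). Neither passed the test (adjusted p = 0.259 and 0.521).

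Between Q and G, 4 of the 20 neighbours were called, all lower in Q, where 7.31% of all genes were called, 4.51% higher and 2.81% lower. Solyc01g087180 had a mean of 0.104 ± 0.022 CPM in Q against 4.97 ± 0.841 CPM in G (SD, n = 3 fruits), with a log2 fold change of -5.51 (edgeR adjusted p = 0.00305, and 0.0505 by limma-voom). Solyc01g087320 was lower by a log2 fold change of -0.93 (adjusted p = 0.0149) and Solyc01g087300 by one of -0.62 (0.0289). Solyc01g087360 stood at a mean of 2.36 CPM in Q against 9.54 CPM in G (adjusted p = 0.0323). The count was 1 without Q library 2, G library 1 or G library 3, and 2 without G library 2. Over all genes the calls ranged from 335 to 2207 with 1 library left out, where all libraries gave 1308. DESeq2 called 7 of the 20, and 2643 of all genes.

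**Figure D4:**
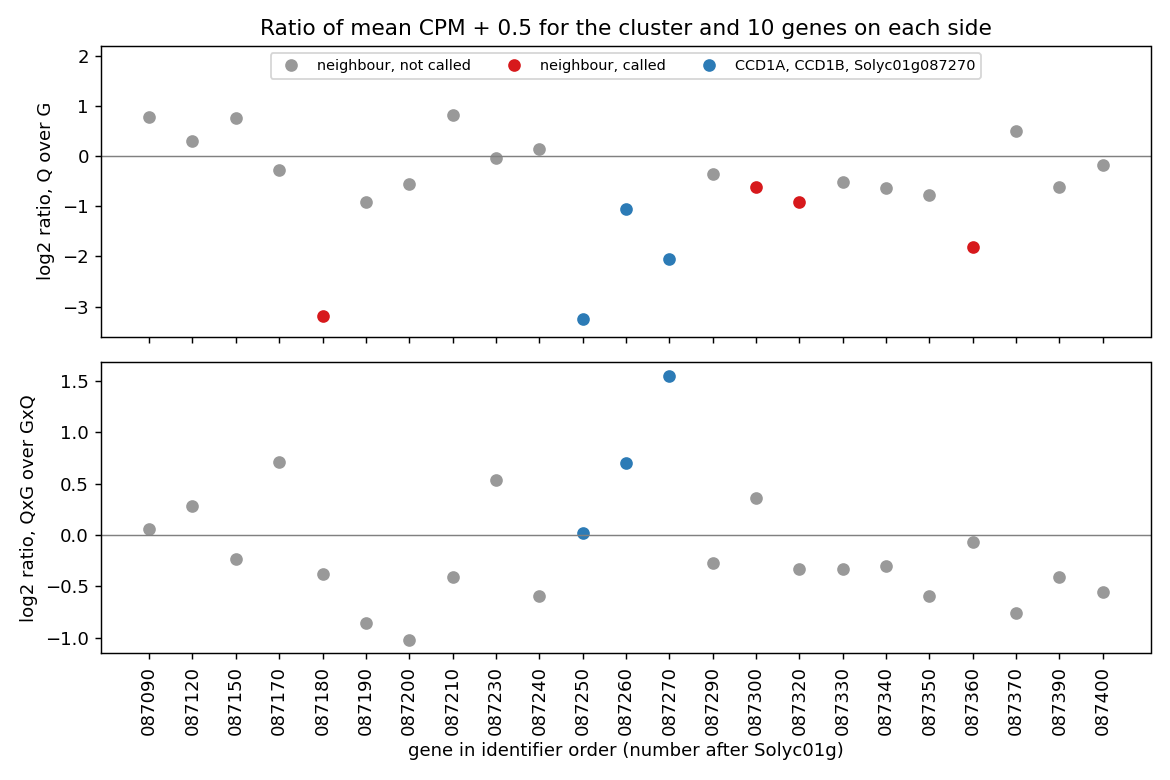
Log2 ratios of mean CPM + 0.5 for Q over G (upper) and QxG over GxQ (lower), for the 3 genes and the 10 nearest table genes on each side in identifier order. Above, the 4 called neighbours lie below 0; below, CCD1B (0.70) and Solyc01g087270 (1.55) lie above 0, CCD1A lies at 0.023, and no neighbour is called.

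In the hybrids Solyc01g087180 had a mean of 4.43 ± 3.29 CPM for QxG and 5.89 ± 4.42 CPM for GxQ (SD, n = 3 fruits). Pooled, the hybrids lay above the log-scale mid-parent by edgeR (log2 fold change 2.80, adjusted p = 0.00525). By limma-voom the value was 2.48 on that scale (adjusted p = 0.0649) and 0.77 against the linear mid-parent (adjusted p = 0.272), and neither passed. Of the 20 neighbours 4 were called against the log-scale mid-parent for both hybrids pooled, where 11.4% of all genes were called (5.3% higher, 6.13% lower). For QxG 4 were called, against 8.51% of all genes (3.37% higher, 5.14% lower), and for GxQ 3, against 15.8% (9.47% higher, 6.28% lower), which is near the 3 of 20. Solyc01g087090 was higher in the pooled hybrids (0.97, adjusted p = 0.00715), and Solyc01g087150, at 0 in every QxG library, was lower (adjusted p = 0.0109). Solyc01g087190 was lower by a log2 fold change of -0.82 (adjusted p = 0.0438), a call that ended on leaving out any single library other than QxG library 1 or 2 and with the replicate block (adjusted p = 0.0569). Solyc01g087300 fell in GxQ (-0.48, adjusted p = 0.0294), a call that ended without GxQ library 1 or 2, Q library 2, or G library 1 or 3 (adjusted p = 0.0619 to 0.116). The QxG count was 1 without QxG library 3 and 7 without Q library 3. Over all genes the QxG calls ranged from 368 to 2536 with 1 library left out, where all libraries gave 1522.

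Of 34 other genes listed for carotenoid cleavage, carotenoid synthesis and plastid isoprenoid supply, 25 were in the table. In GxQ against the log-scale mid-parent 4 of the 25 were called, near the 15.8% of all genes called in either direction. All 4 were lower, where 6.28% of all genes were called lower, and 2 of the 25 had a positive log2 fold change. The median of the 25 was -0.46, and that of all genes -0.0077. For both hybrids pooled 3 of 25 were called, near the 11.4% of all genes called in either direction. All 3 were lower, where 6.13% of all genes were called lower. The median of the 25 was -0.40 against -0.033 for all genes. For QxG edgeR called 0 of 25, against 8.51% of all genes, with a median of -0.20 against -0.052 for all genes. In QxG 5 of the 25 had an unadjusted p under 0.05. The share of all genes below that limit is not given here, and it is at least the 8.51% called. DESeq2 called 2 of the 25 in QxG, and 2861 of all genes. By edgeR the GxQ count was 7 without QxG library 1 and 2 without GxQ library 2 or G library 2. The count for both hybrids was 1 without GxQ library 1, G library 2 or G library 3. Over all genes the calls with 1 library left out ranged from 1455 to 3779 in GxQ and from 1002 to 2663 for both hybrids.

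Of the flesh, epidermis and chloroplast markers, PL, EXP1, PG2A and CAB were called lower in GxQ, and CER6, the RBCS gene and PSY1 were not called. Against the log-scale mid-parent PL had a log2 fold change of -2.32, EXP1 one of -1.86, PG2A one of -1.51 and CAB one of -1.38 (edgeR adjusted p = 0.000891, 0.0155, 0.0457 and 0.0237). CER6 had -2.61, the RBCS gene -0.36 and PSY1, a flesh marker that is also in the carotenoid list, -0.47 (adjusted p = 0.0694, 0.648 and 0.278). The part of these markers in the carotenoid values was not tested.

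Z-ISO, an isomerase on the way from phytoene to lycopene, averaged 1126 ± 311 CPM in QxG, 800 ± 85.0 CPM in GxQ, 1423 ± 497 CPM in Q, and 2112 ± 36.3 CPM in G fruits (SD, n = 3 per genotype). It fell by 1.12 on the log2 scale in GxQ (edgeR adjusted p = 0.0102), against the log-scale mid-parent. For QxG alone the value was -0.62 (adjusted p = 0.116), and pooled over both hybrids it was -0.87 (adjusted p = 0.0137). CRTISO-like, a relative of the carotenoid isomerase CRTISO, fell by 1.48 in GxQ (adjusted p = 0.0309). That call ended without GxQ library 1 or 2, Q library 1, or G library 2 or 3 (adjusted p = 0.0513 to 0.0644).

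GGPPS3, which makes geranylgeranyl diphosphate, the precursor of carotenoids, fell by 0.85 in GxQ (edgeR adjusted p = 0.00676). For QxG alone the value was -0.18 (adjusted p = 0.520), and pooled over both hybrids it was -0.51 (adjusted p = 0.0286). The pooled call ended without QxG library 2 or 3, GxQ library 1 or 3, or G library 2 or 3 (adjusted p = 0.0523 to 0.0735). GGPPS3 was also the 1 gene of 25 called between the hybrids, at 62.4 ± 1.58 CPM in QxG against 39.2 ± 7.32 CPM in GxQ (SD, n = 3 fruits; log2 fold change 0.67, adjusted p = 0.0391). Over all genes 10.1% were called between the hybrids, 2.66% higher in QxG and 7.49% lower. The GGPPS3 call between the hybrids ended without any QxG or G library or GxQ library 1 or 3 (adjusted p = 0.0538 to 0.131). In the fit without a block the median of the 25 was 0.40 against -0.017 for all genes. With a replicate block in the hybrids 2 of 25 were called, and the number over all genes with that block is not given here.

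**Figure D5:**
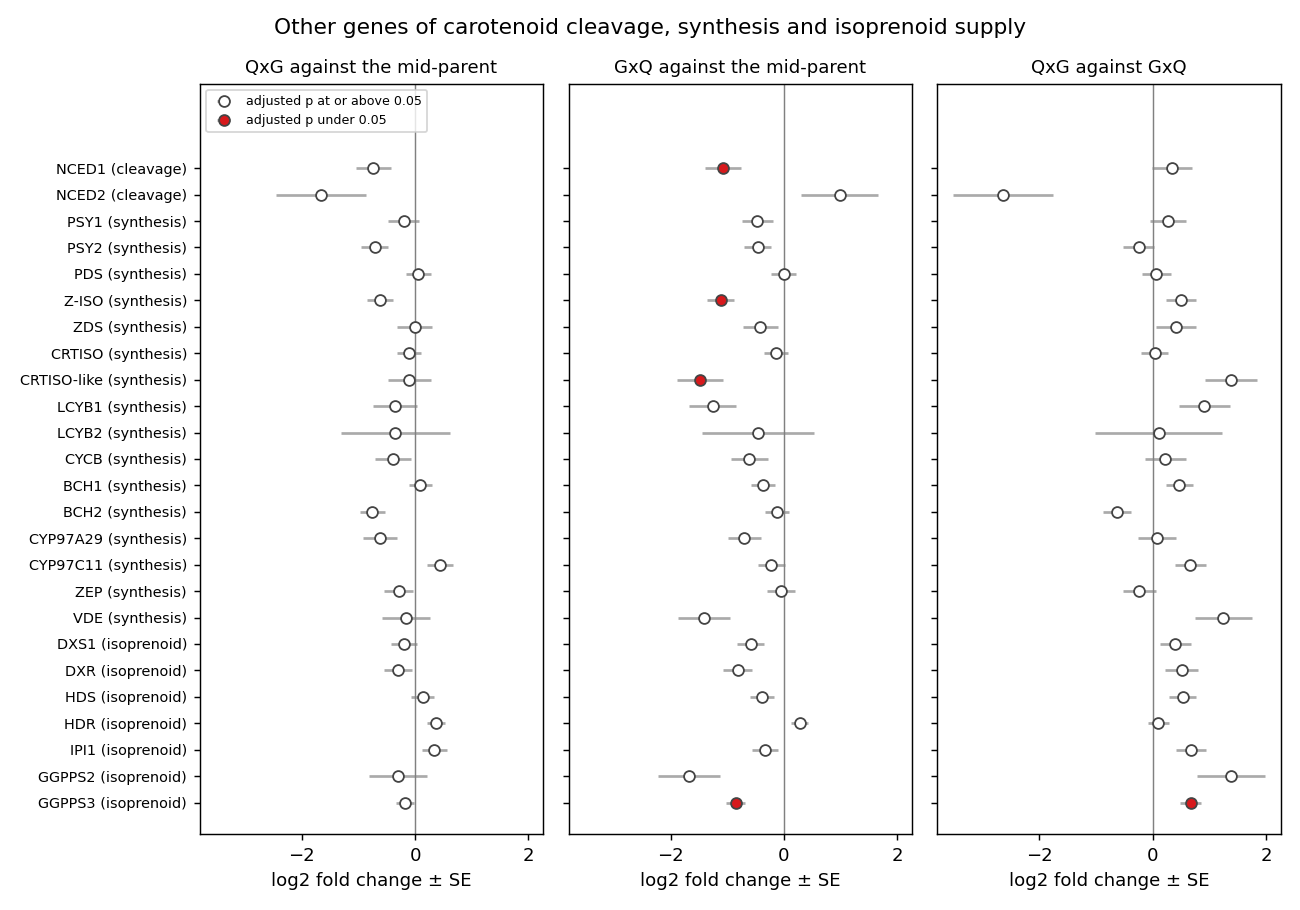
Log2 fold change ± SE of 25 other carotenoid and isoprenoid genes for QxG and GxQ against the log-scale mid-parent and for QxG against GxQ, with genes at an adjusted p under 0.05 in red. In GxQ the 4 called genes, NCED1, Z-ISO, CRTISO-like and GGPPS3, lie below 0, and in QxG against GxQ 21 of 25 genes lie above 0.

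PSY1 catalyses the entry step into the carotenoid pathway, and averaged 6704 ± 1883 CPM in QxG, 5562 ± 1004 CPM in GxQ, 6617 ± 2510 CPM in Q, and 8968 ± 243 CPM in G fruits (SD, n = 3 per genotype; edgeR adjusted p = 0.351 for both hybrids). The desaturase PDS gave a log2 fold change of 0.028 for both hybrids (adjusted p = 0.943), the desaturase ZDS -0.21 (0.619), CRTISO -0.12 (0.686) and the lycopene cyclase CYCB -0.50 (0.231). Between Q and G 2 of 25 were called, near the 7.31% of all genes called there. PDS was lower in Q, at 106 ± 18.7 CPM against 221 ± 10.0 CPM in G (SD, n = 3 each; adjusted p = 0.0339). CYP97C11, a hydroxylase of the xanthophyll branch, was higher in Q, at 10.8 ± 1.38 CPM against 2.51 ± 0.669 CPM in G (SD, n = 3 each; adjusted p = 0.00262). The PDS call ended without Q library 1 or 2 or any G library (adjusted p = 0.0938 to 0.135), and without Q library 3 the count was 4. Over all genes the calls between Q and G ranged from 335 to 2207 with 1 library left out.

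Of the other cleavage dioxygenases NCED1 and NCED2 were in the table, and CCD4A, CCD4B, CCD7, CCD8 and Solyc05g053530 were not analysed here. NCED1 cuts epoxycarotenoids on the way to abscisic acid. It measured 34.7, 18.1 and 63.0 CPM in QxG, 25.4, 36.7 and 29.6 CPM in GxQ, 64.8, 56.7 and 69.7 CPM in Q, and 60.3, 83.0 and 51.6 CPM in G. All GxQ libraries were below all parental libraries, and QxG libraries were spread widely. NCED1 fell by 1.07 on the log2 scale in GxQ (edgeR adjusted p = 0.0380). For QxG alone the value was -0.74 (adjusted p = 0.156), and pooled over both hybrids it was -0.91 (adjusted p = 0.0359). The GxQ call ended without any GxQ or Q library or G library 1 or 2 (adjusted p = 0.0541 to 0.124) and with the replicate block (0.0512), and the pooled call without QxG library 1, GxQ library 1 or 3, or any Q or G library (0.0537 to 0.0843).

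NCED2, of the same family, measured 0, 0.786 and 2.31 CPM in QxG, 8.59, 4.82 and 5.60 CPM in GxQ, 6.44, 5.66 and 2.14 CPM in Q, and 2.45, 2.29 and 1.72 CPM in G. Its QxG libraries were all below its GxQ libraries, the opposite order to CCD1B. The difference did not pass (log2 fold change -2.64, SE 0.882, edgeR adjusted p = 0.0825).

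The genes most like each of CCD1A, CCD1B and Solyc01g087270 were sought by Pearson r of log2(CPM + 0.5) over the 12 libraries. The search covered 12476 genes whose mean reached 5 CPM, and the genes found have no names in the sources at hand. Those for CCD1A were Solyc01g107080 (r = 0.977), Solyc01g105420 (0.960) and Solyc05g006140 (0.959). Solyc01g107080 averaged 4.87 ± 1.98 CPM in QxG, 2.91 ± 0.449 CPM in GxQ, 0.268 ± 0.117 CPM in Q, and 12.1 ± 2.65 CPM in G fruits (SD, n = 3 per genotype). Those for CCD1B were Solyc10g080680 (0.964), Solyc01g107320 (0.949) and Solyc02g069570 (0.939). Solyc10g080680 averaged 10.4 ± 3.09 CPM in QxG, 4.71 ± 1.31 CPM in GxQ, 4.05 ± 2.16 CPM in Q, and 11.3 ± 1.10 CPM in G fruits (SD, n = 3 per genotype). Those for Solyc01g087270 were Solyc05g009780 (0.947), Solyc03g051810 (0.924) and Solyc03g112570 (0.921).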

How the data were processed

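The authors deposited 1 table of whole-number read counts for 17887 genes in 12 libraries, and 0 columns were left unmatched. The submitters' processing notes name fastp 0.21, HISAT2 2.1.0, featureCounts, edgeR and R 4.0.3 without roles. Build, annotation and strand setting: not given in the sources used here. Members, lists and tests were chosen with earlier results of these data known. Counts were fitted with edgeR 4.0.16 in R 4.3.3 (TMM factors, quasi-likelihood F test, 1 mean per genotype), and filterByExpr removed 0 genes. A gene was called where its p, adjusted over all genes by Benjamini-Hochberg, was under 0.05. Standard errors were derived from the log2 fold change and its F statistic. For the 3 members the mid-parent contrasts were planned as tests, as was QxG against GxQ for CCD1A, Solyc01g087270 and the sum. All are given as values, because hybrid and parental levels were known when the members were chosen. The linear mid-parent was fitted with limma 3.58.1 (voom, delta-method standard error), and DESeq2 1.42.0 was an alternative. The fit was tested on simulated data. QxG and GxQ libraries with the same replicate number deviated together (r = 0.164, 0.333 and 0.209). Every pair exceeded 0.1, the rule used here for trying a replicate block. No label pairs these libraries, and the main fit has no block. Genes named were the 3 members, the cleavage list, 5 fixed pathway genes (PSY1, PDS, ZDS, CRTISO, CYCB), up to 4 called list genes and 4 called neighbours per comparison, and the 3 most alike; Solyc01g087240 and Solyc01g087290 were named as the adjacent genes after their values were seen. RefSeq matched 0 identifiers, so names rest on lists written by identifier.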

Additional observations from a re-analysis of the deposited data

Results flagged for a closer look

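Every QxG library of CCD1B lay above the mean of the parents and every GxQ library lay below it, with a log2 fold change of 0.70 for QxG against GxQ. The sum of the 3 genes did the same, at 0.66. The difference was not tested, since it was known when the genes were chosen.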

How the results depend on the processing

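Against the linear mid-parent CCD1A turned to -0.35 (both hybrids), -0.34 (QxG) and -0.37 (GxQ), CCD1B to -0.038 and the sum to -0.057 (both hybrids), and Solyc01g087270 to -1.17, -0.92 and -1.42, all by limma-voom. For Solyc01g087270 the signs of both hybrids and of QxG go against the means, which put both hybrids pooled at 142% and QxG at 243% of that mid-parent. GxQ stood at 41.2% of it. On the log scale limma-voom gave 0.94, 1.19 and 0.69, where edgeR gave 4.26 in QxG and 1.73 in GxQ. DESeq2 gave 0.48 (QxG) and 0.42 (GxQ) for CCD1A, 0.44 for CCD1B and 0.42 for the sum in QxG, and 2.82 (both hybrids) and 4.11 (QxG) for Solyc01g087270. With 1 library left out CCD1A ranged from 0.36 to 0.51 (both hybrids), 0.37 to 0.52 (QxG), 0.35 to 0.49 (GxQ) and -0.018 to 0.12 (QxG against GxQ), and in QxG CCD1B from 0.36 to 0.53 and the sum from 0.35 to 0.51. Solyc01g087270 ranged from 2.77 to 3.29 (both hybrids), 3.80 to 4.88 (QxG) and 2.07 to 3.16 (QxG against GxQ). Leaving out Q library 3 and QxG library 1 together gave 0.37 (both hybrids) and -0.0036 (QxG against GxQ) for CCD1A, 0.62 for CCD1B and 0.60 for the sum (QxG), and 3.31, 4.90 and 3.18 for Solyc01g087270. Its Q against G value, with Q at 0, was -6.17 by limma-voom, and a minimum of 1 CPM removed it. The cause was not tested.

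Called carotenoid genes numbered 5, 2, 8 and 3 by DESeq2 (both hybrids, QxG, GxQ, QxG against GxQ) and 5, 1 and 2 with the replicate block in all genotypes (both hybrids, QxG, QxG against GxQ). Without Q library 3 and QxG library 1 they numbered 2 in QxG, 7 between the hybrids and 7 between Q and G. With 1 library left out they numbered 1 to 4, 0 to 2, 2 to 7, 0 to 3 and, between Q and G, 1 to 4. Called neighbours between Q and G numbered 7 by DESeq2, 7 without those 2 libraries (also 7 in QxG), and 1 to 6 with 1 library left out (1 to 7 in QxG, 0 to 2 between the hybrids). Over all genes DESeq2 called 3224 (both hybrids), 2861 (QxG), 3907 (GxQ), 2715 (QxG against GxQ) and 2643 (Q against G). There edgeR called 2045, 1522, 2818, 1815 and 1308. With the replicate block in all genotypes it called 1987 (both hybrids), 1392 (QxG) and 1709 (QxG against GxQ). Without Q library 3 and QxG library 1 it called 3240 in QxG, 2518 between the hybrids and 2939 between Q and G. With 1 library left out it called 1127 to 2205 between the hybrids and 335 to 2207 between Q and G. A replicate block in the hybrids alone, added after seeing the data, gave 2 carotenoid genes, 1 neighbour and 0.020 for CCD1A (QxG against GxQ). The block in all genotypes ended the NCED1 call in GxQ and the pooled Solyc01g087190 call. Counts of 0 to 53 limit the precision of Solyc01g087270.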
